A study of Homo sapiens with 16 samples.

Results

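The zinc finger genes of human chromosome 19 that carry a ZNF number were described in RNA from SH-SY5Y, a neuroblastoma cell line, in 16 libraries. A gene was counted as a member when it was protein-coding, its symbol was ZNF followed by a number, GENCODE 29 placed it on chromosome 19 of GRCh38, and it reached at least 1 normalized CPM in at least 4 libraries. Normalized CPM is the number of reads on a gene relative to the scaled size of its library, on the counts-per-million (CPM) scale. Of 246 such genes in the annotation, 243 were in the deposited tables and 3 were not analysed here. The members were chosen by their measured level, and 229 of the 243 passed, among 15325 of 26410 genes in all that passed the same rule. The level itself is therefore no finding. In all 16 libraries, 213 members reached 1 normalized CPM, and ZNF135 passed only through Scr libraries. Just inside the rule were ZNF709, ZNF442 and ZNF729, which reached 1.08, 1.39 and 1.44 normalized CPM in at least 4 libraries, and just outside were ZNF544 and ZNF888, for which that level was 0.855, and ZNF878 with 0.713.

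The study compared 4 groups of 4 libraries. The Scr groups came from 2 clones that had received a scrambled guide (Scr13 and Scr16), and the TRPM2 KO groups from 2 clones that had received a guide against TRPM2 (KO11 and KO28), a calcium-permeable channel gene. According to the labels all 4 clones were grown from single cells after transfection with Cas9, a donor vector carrying GFP and puromycin markers, and puromycin selection. Each clone was cultured for 24 h in regular medium or with doxorubicin, a drug that poisons topoisomerase and breaks DNA, at 0.3 µM according to the labels (3 µM according to the design text of the series), with 2 replicates per clone and treatment. A genotype therefore rests on 2 clones, and a difference between clones cannot be told apart from an effect of the guide. Depth ranged from 10481177 to 25086085 reads per library.

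Most of these genes encode proteins with an array of C2H2 zinc fingers that read DNA sequence, joined in many to a KRAB domain. KRAB domains bind TRIM28, which brings histone H3K9 methyltransferases, HP1 proteins and DNA methylation to the bound site. The genes arose by repeated local duplication, stand in clusters along the chromosome, and many of the proteins silence transposable elements. Of the members, 96 overlap another annotated gene on the same strand and 120 one on the opposite strand, so that reads may have been shared or lost between them. In the GENCODE translations a KRAB-like pattern was found in 188 members, and the median number of finger patterns was 12.

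Before the members, the labels were checked. TRPM2 was at 1.93, 2.23, 1.41 and 2.19 normalized CPM in the untreated libraries labelled TRPM2 KO (21 to 37 reads each) and at 0.118, 0.115, 0 and 0 in untreated Scr (0 to 3 reads each). Without treatment the gene thus had more reads in the libraries labelled as its knockout. Of the Scr libraries only Scr16 after doxorubicin, replicate 1, reached 1 normalized CPM. TRPM2 therefore passed the level rule through the TRPM2 KO libraries, and its difference without treatment is given as a description. After doxorubicin it was at 1.22, 1.83, 1.37 and 0.658 in TRPM2 KO and at 0.0594, 0.0631, 1.33 and 0.390 in Scr, groups that overlapped (log2 fold change 0.69, limma adjusted p = 0.144). According to the study's methods the start of the coding sequence was deleted and the rest put out of frame. Reads outside the deleted part therefore check nothing about the labels, and where reads lie along the gene was not analysed here. TRPM2 KO is used below as the label of these libraries. Doxorubicin was visible in both genotypes. CDKN1A, the p53 target that encodes p21, was higher after treatment by 2.58 in Scr and 2.43 in TRPM2 KO on the log2 scale, and all 12 listed p53 targets rose in each genotype. It was also higher in TRPM2 KO than in Scr, by 1.27 without treatment and 1.13 with it, without overlap. Of the neuroblastoma markers, HAND2 (lowest library 1281), DBH (1204), PHOX2A (592) and GATA3 (541 normalized CPM) were high in every library, whereas TH was at most 1.13 and CHGA had a median of 1.40. Of 7 markers of other cell types, 3 were in the tables. EPCAM was at most 1.82 normalized CPM, and the fibroblast collagens COL1A1 and COL3A1 were present and differed between genotypes, as given below. One library stood apart over the members, Scr16 after doxorubicin, replicate 1. It had the fewest reads, and 224 members had a read in it against 227 to 229 in the others, so the counts of called members are also given without it.

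The members were expressed at moderate levels that changed little as a whole. Their mean level had a median of 14.7 normalized CPM, from 0.788 to 124, against 23.6 for all genes tested. Summed over the 229 members, a library held 4698 ± 55.2 normalized CPM in untreated Scr, 4635 ± 72.6 in Scr after doxorubicin, 4719 ± 149 in untreated TRPM2 KO and 4778 ± 121 in TRPM2 KO after doxorubicin (SD, n = 4 each). The ranges of the 4 groups overlapped. The most reads fell on ZNF146, which encodes a small protein of fingers without KRAB, at 124 normalized CPM, then on ZNF536, a repressor in neuronal differentiation, at 112, on ZNF358 at 109, and on ZNF121 and ZNF562. Per kilobase of the longest transcript, ZNF358 was highest at 55.6 normalized CPM, ZNF146 followed at 32.9, ZNF581 had 29.5 and ZNF536 22.6. None of the 5 members with the most reads passed the test for a change with doxorubicin in either genotype. ZNF146 was nearest to the threshold, with a log2 fold change of -0.24 in Scr and -0.22 in TRPM2 KO (limma adjusted p = 0.0887 and 0.0954).

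In Scr cells, doxorubicin moved few of these genes. Of the 229 members 3 rose and 3 fell after doxorubicin, which is 2.62%, while 11.5% of all genes tested were called, 6.53% higher and 4.99% lower (limma on log2(normalized CPM + 1), Benjamini-Hochberg adjusted p under 0.05 over all 15325 genes). Without the lowest-depth library 7 members were called, of which ZNF581, ZNF83 and ZNF583 were also among the 6, while ZNF844, ZNF557 and ZNF649 no longer passed. Without the other treated library of Scr16, replicate 2, 10 were called. The shares of all genes called in these fits are not given here. The members' median log2 fold change was -0.06, with quartiles of -0.20 and 0.11, against -0.01 for all genes tested. On the scale of log2(normalized CPM + 1), which understates changes of low genes, no member reached a 2-fold change in either genotype. By a looser measure, the 4 treated and 4 untreated libraries did not overlap for 10 members that were higher and 7 that were lower, 7.42% in all, against 16.4% of all genes. The members' standard error was larger (median 0.17 against 0.14 on the log2 scale) and their level lower, and the part of either in these shares was not tested. The 234 ZNF genes of other chromosomes that passed the level rule had a median of -0.05 and 8.55% called, and the 715 other protein-coding genes of chromosome 19 had a median of 0.10 and 19.2% called.

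The largest rise in Scr was that of ZNF581, a short gene with 4 finger patterns. Its level was 30.7 and 29.2 normalized CPM in untreated Scr13, 28.4 and 28.5 in untreated Scr16, and 56.2, 41.1, 52.2 and 50.9 after doxorubicin in the same order of clones. All treated libraries were above all untreated ones, the log2 fold change was 0.75 (SE 0.11, limma adjusted p = 2.42e-05), with p = 0.0286 by exact permutation, which is the smallest value possible with 4 against 4 libraries. ZNF581 overlaps ZNF580 and CCDC106 on the same strand, so reads in the shared part may have been assigned elsewhere. ZNF83 was at 21.9 to 26.3 normalized CPM untreated and at 38.7, 34.1, 42.6 and 33.2 after doxorubicin, without overlap (log2 fold change 0.59, SE 0.13, limma adjusted p = 0.00269). ZNF844 was the third, at 10.1 to 16.0 untreated and 16.6 to 23.5 treated (log2 fold change 0.53, limma adjusted p = 0.0238). These 3 genes lie in different clusters, and they were also the ones called in both genotypes. In TRPM2 KO the call of ZNF844 (limma adjusted p = 0.0487) was lost in 20 of 34 alternative settings, 12 of them with 1 library left out, and that of ZNF83 in 3 and of ZNF581 in 1 with 1 library left out. In Scr the call of ZNF844 was lost in 7 settings, 3 of them with 1 library left out, whereas ZNF581 and ZNF83 kept theirs with any single library left out.

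The falls in Scr included ZNF649, which is known to bind LINE-1 retrotransposons. It was at 13.1 and 15.7 in untreated Scr13 and 18.7 and 14.9 in untreated Scr16, and at 6.94 to 11.5 normalized CPM after doxorubicin, without overlap (log2 fold change -0.64, SE 0.17, limma adjusted p = 0.0131). The change was -0.95 in Scr16 and -0.33 in Scr13. ZNF649 overlaps ZNF577 on the same strand and an antisense gene on the opposite one. ZNF583 was at 7.32, 8.81, 9.76 and 7.04 normalized CPM untreated and at 3.33, 4.79, 4.18 and 5.91 treated (log2 fold change -0.74, SE 0.19, called by limma, exact permutation p = 0.0286). It fell to a similar extent in both clones, by 0.85 in Scr13 and by 0.64 in Scr16 on the log2 scale. ZNF557 fell from 28.9 ± 3.94 to 20.9 ± 2.18 normalized CPM (SD, n = 4 each), with groups that overlapped slightly (log2 fold change -0.45, limma adjusted p = 0.0227). With 1 library left out, the call of ZNF557 was lost in 4 cases and that of ZNF649 in 2, and that of ZNF583 was kept. With Scr13 left out 2 members were called in Scr, and with Scr16 left out 1, in fits with fewer libraries.

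In the libraries labelled TRPM2 KO, more members passed the test. After doxorubicin 14 members rose and 9 fell, 10.0% of the members against 16.7% of all genes tested, and by direction 9.62% of all genes rose and 7.11% fell. In fits without a clone, which hold fewer libraries, 5 members were called without KO11 and 6 without KO28. The shares of all genes called with a clone or library left out are not given here. The part of the smaller number of libraries in these counts was not tested. Without the lowest-depth library, which is one of Scr and enters this fit through the shared estimate of the spread, 29 were called. Without KO28 after doxorubicin replicate 2, 14 were called, and without replicate 1 of the same clone and treatment 15. For 34 members the treated and untreated libraries did not overlap, 14.8% against 19.1% of all genes. The members' median log2 fold change was 0.03 against 0.02 for all genes tested. The medians of the single clones differed in sign, -0.02 in KO11 and 0.06 in KO28.

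Of the 9 falls 7 lay in the cluster of the short arm nearest to the centromere, from ZNF101 to ZNF254 (19.67 to 24.13 Mb), in which genes are known to have multiplied during primate evolution, and ZNF566 and ZNF850 lay on the long arm. The cluster was chosen for description after these values were seen, so no test is given for it. The count of 7 was 4 without either untreated library of KO11, 5 without KO11 after doxorubicin replicate 1 or KO28 after doxorubicin replicate 2, 1 without clone KO11 and 3 without clone KO28. ZNF730 fell most. It was at 12.6 and 11.4 normalized CPM in untreated KO11, 12.1 and 14.5 in untreated KO28, 5.95 and 6.93 in treated KO11 and 6.02 and 4.96 in treated KO28. The means were 12.6 and 5.96, the groups did not overlap, and the log2 fold change was -0.97 (SE 0.20, limma adjusted p = 6.85e-04, exact permutation p = 0.0286). In Scr the same gene was at 9.82 ± 1.61 untreated and 8.08 ± 2.42 treated (SD, n = 4 each), with groups that overlapped.

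ZNF714, the most abundant of the 7, was at 61.7, 66.2, 56.9 and 57.6 normalized CPM untreated and at 42.3, 44.5, 52.1 and 32.3 treated in TRPM2 KO (log2 fold change -0.51, SE 0.11, limma adjusted p = 0.00172). In Scr it was at 56.6, 61.1, 68.2 and 53.4 untreated and at 48.0 ± 4.08 treated (SD, n = 4), also without overlap, with a log2 fold change of -0.31 that did not pass the threshold (limma adjusted p = 0.0722). ZNF738, for which the translation held a KRAB pattern and no finger pattern, was at 20.5 to 26.7 untreated and 13.4 to 15.7 treated in TRPM2 KO (log2 fold change -0.62, limma adjusted p = 0.00669). ZNF726, ZNF681, ZNF431 and ZNF724 fell by 0.57, 0.48, 0.43 and 0.41 on the log2 scale, each without overlap between treated and untreated TRPM2 KO libraries. With 1 library left out, the call of ZNF681 was lost in 2 cases and that of ZNF726 in 1, and those of ZNF730, ZNF714 and ZNF738 were kept. All 9 members that fell in TRPM2 KO were also below 0 in Scr, though none of the 9 passed there. Of all 229 members, 43.2% were above 0 in Scr, and the share among all called genes is not given here. Outside the cluster, ZNF566 was at 40.0, 30.5, 33.9 and 36.9 normalized CPM untreated and at 24.6, 22.2, 22.8 and 22.7 treated (log2 fold change -0.59, SE 0.11, limma adjusted p = 4.01e-04), and its fall passed in every one of 34 alternative settings.

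**Figure D1:**
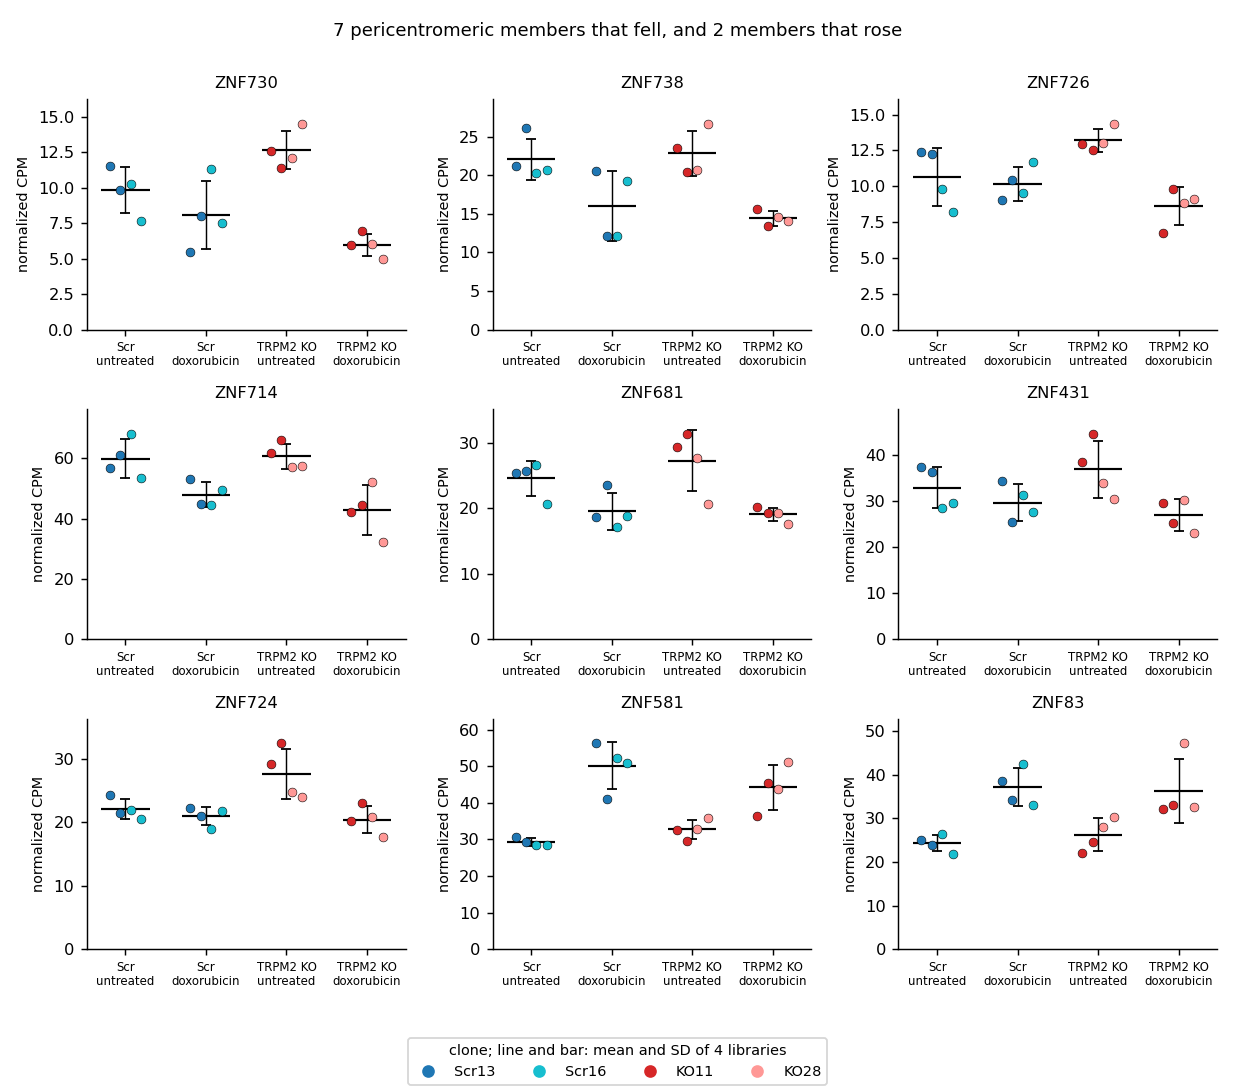
Normalized CPM (vertical axes, from 0) of the 7 members of the cluster nearest to the centromere that fell in TRPM2 KO and of 2 members that rose in both genotypes, by group. Each point is a library coloured by clone, and lines and bars are the mean and SD of 4 libraries. In TRPM2 KO the treated libraries of the 7 lie below all untreated ones, for ZNF730 at 4.96 to 6.93 against 11.4 to 14.5.

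Over the whole cluster nearest to the centromere, 0 of 32 members were called in Scr and 7, all lower, in TRPM2 KO. Of all genes tested, 4.99% were called lower in Scr and 7.11% in TRPM2 KO. The median log2 fold change of the 32 members was -0.20 in Scr and -0.19 in TRPM2 KO. Of the 32, 7 were above 0 in Scr and 6 in TRPM2 KO, while 48% and 52.9% of all genes tested were. Single members ranged from -0.59 (ZNF737) to 0.61 (ZNF208) in Scr and from -0.97 (ZNF730) to 0.22 (ZNF429) in TRPM2 KO. By clone the medians were -0.23 in Scr13, -0.18 in Scr16, -0.37 in KO11 and -0.06 in KO28. The summed level of the cluster was 502, 537, 568 and 455 normalized CPM in untreated Scr, 470, 444, 457 and 457 in treated Scr, 590, 626, 522 and 493 in untreated TRPM2 KO, and 475, 444, 509 and 427 in treated TRPM2 KO. The treated libraries were on average lower, but in each genotype the highest treated library was above the lowest untreated one. The Scr median was -0.12 without the lowest-depth library, -0.11 without untreated Scr13 replicate 2 and -0.14 after removal of the trend with GC content, and the TRPM2 KO median was -0.13 without untreated KO11 replicate 2. Members of this cluster are close copies of each other, so their values are not independent, and how reads that fit several copies were counted is not given in the sources used here. In the other 6 clusters with at least 10 members, the median lay between -0.14 and 0.02 in Scr and between -0.01 and 0.21 in TRPM2 KO. The highest of these was the cluster from ZNF653 to ZNF791 (11.48 to 12.64 Mb), whose 21 members had a median of -0.07 in Scr and 0.21 in TRPM2 KO, with 2 members called higher and 0 lower in the latter, a share near the 9.62% of all genes that rose. Its members ranged from -0.53 (ZNF491) to 0.53 (ZNF844) in Scr and from -0.39 (ZNF709) to 0.61 (ZNF563, not called) in TRPM2 KO. Both medians moved with 1 library, since the one in TRPM2 KO was 0.02 without untreated KO28 replicate 2 and the one in Scr was 0.09 without Scr16 after doxorubicin replicate 1.

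**Figure D2:**
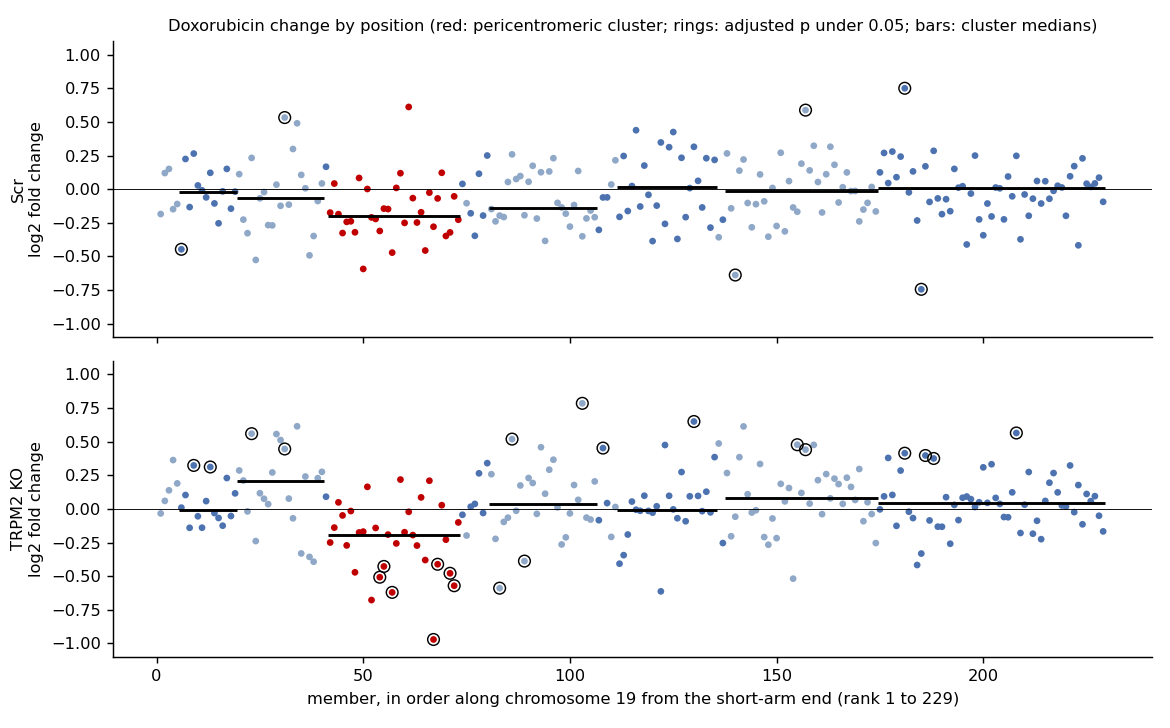
Log2 fold change after doxorubicin (vertical axes) of the 229 members in their order along chromosome 19 (horizontal axis, rank), in Scr (top) and TRPM2 KO (bottom). Alternating blues mark successive clusters, red the cluster nearest to the centromere, rings an adjusted p under 0.05, and bars the median of clusters with at least 10 members. Among the clusters with bars the red one has the lowest medians, -0.20 and -0.19, and it holds 7 of the 9 ringed falls. Without untreated Scr13 replicate 2, the cluster from ZNF565 to ZNF573 is lower in Scr, at -0.14 against -0.11.

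The promoters of this cluster are shown because 7 of its members fell in TRPM2 KO. RefSeq promoters (GRCh38.p14) were matched to 201 members, 26 of them in the cluster, and the 250 bases before the start of transcription were searched on both strands. The letters CCAAT (reverse complement ATTGG), which the factor NF-Y is known to bind, were in all 26 promoters of the cluster, in 75 of 175 of the other members and in 33.0% of 27305 promoters of all genes. The median number of matches in the cluster was 2, and their median distance was 58 bases before the start. The sequences below cover chr19:23116775-23117024 (plus strand), chr19:21081953-21082202 (plus), chr19:23758892-23759141 (minus) and chr19:23250395-23250644 (minus), the promoters of 4 of the 7 falls, 5′ to 3′ with CCAAT or ATTGG in capitals.
ZNF730: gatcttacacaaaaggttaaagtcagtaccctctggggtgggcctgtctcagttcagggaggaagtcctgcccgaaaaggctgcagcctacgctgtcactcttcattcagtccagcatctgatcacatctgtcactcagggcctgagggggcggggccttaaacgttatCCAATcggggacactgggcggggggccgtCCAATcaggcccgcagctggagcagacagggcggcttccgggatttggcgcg
ZNF714: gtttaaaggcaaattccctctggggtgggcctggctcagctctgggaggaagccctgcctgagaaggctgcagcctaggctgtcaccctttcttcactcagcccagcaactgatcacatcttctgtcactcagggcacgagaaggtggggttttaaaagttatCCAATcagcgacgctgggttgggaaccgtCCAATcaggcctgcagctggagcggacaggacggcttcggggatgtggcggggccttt
ZNF681: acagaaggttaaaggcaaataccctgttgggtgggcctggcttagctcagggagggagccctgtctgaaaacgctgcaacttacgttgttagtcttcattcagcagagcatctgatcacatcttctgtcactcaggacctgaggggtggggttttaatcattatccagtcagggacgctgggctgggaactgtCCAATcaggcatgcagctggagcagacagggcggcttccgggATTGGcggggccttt
ZNF724: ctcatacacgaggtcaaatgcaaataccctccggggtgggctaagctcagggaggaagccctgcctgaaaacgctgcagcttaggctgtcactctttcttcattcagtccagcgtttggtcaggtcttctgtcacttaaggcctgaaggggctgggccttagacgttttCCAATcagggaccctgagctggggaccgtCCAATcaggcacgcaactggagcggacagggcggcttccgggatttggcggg
The copies are similar along their whole length. In ZNF730, ZNF714 and ZNF724 the first capitals begin 81 or 87 bases before the start, and a second match follows within the stretch TCCAATCAGG. That stretch, the most widely shared run of 10 bases in the cluster, was in 24 of its 26 promoters, in 14 of 175 of the other members and in 0.385% of all promoters.

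Other short motifs were searched in the same way. GGGCGG, the core that SP1 binds, was in 73.1% of the cluster's promoters, 63.4% of those of other members and 42.3% of all. CTTCCG, an ETS core, was in 65.4%, 40.6% and 16.8%, and TTTGGCGC, an E2F-type site, in 11.5%, 2.29% and 0.553%. Among the other clusters with at least 10 members, GGGCGG ranged from 29.2% to 95% of promoters and CTTCCG from 20% to 69.2%. Both ranges reach above the shares of the cluster nearest to the centromere. TTTCCCGC was in 3.85%, 0.571% and 1.42%. TGACGTCA, CACGTG and GCATGCGC were in none of the cluster's promoters and in 2.86%, 4.57% and 4.57% of those of other members. CCAAT lies inside the stretch TCCAATCAGG, and otherwise none of these motifs contains another, apart from the dinucleotide CG, which several hold. Dinucleotides CG were fewer in the cluster, with a median of 8 in 250 bases against 17 in the other members and 11 in all promoters. A match to letters is a description of the window and not of a bound site. CCAAT was also in 18 of 20 promoters of the cluster from ZNF653 to ZNF791, whose median in TRPM2 KO was 0.21 (0.02 without untreated KO28 replicate 2). Among members outside the cluster nearest to the centromere those with CCAAT had a median of 0.01 in Scr and 0.07 in TRPM2 KO, and those without it -0.06 and 0.02.

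The 14 rises in TRPM2 KO were spread over 7 clusters. ZNF571 rose most. It was at 4.52 and 4.10 in untreated KO11, 4.16 and 3.94 in untreated KO28, 6.14 and 8.00 in treated KO11, and 8.63 and 9.21 normalized CPM in treated KO28, without overlap (log2 fold change 0.79, SE 0.22, limma adjusted p = 0.0139). In Scr it was at 7.56, 4.55, 7.43 and 4.26 untreated and 6.18, 4.04, 4.28 and 3.18 treated, a log2 fold change of -0.35 that did not pass. ZNF571 overlaps ZNF540 and an antisense gene on the opposite strand, and since the strand setting of the counting is not given in the sources used here, reads of these genes may not have been kept apart. ZNF233 followed with a log2 fold change of 0.65 (limma adjusted p = 0.0454), which rested on KO28 (1.11, against 0.19 in KO11) and was lost in 9 cases with 1 library left out. ZNF211 was at 13.3 to 17.9 untreated and 20.9 to 26.6 normalized CPM treated (log2 fold change 0.56, SE 0.14, limma adjusted p = 0.00355). ZNF441, ZNF382 and ZNF808, the last a repressor of transposable elements with a known role in pancreas development, rose by 0.56, 0.52 and 0.48 on the log2 scale, and their calls were lost in 1, 2 and 6 cases with 1 library left out. Of the 14 members, 11 were also above 0 in Scr, while 43.2% of all 229 members were.

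**Figure D3:**
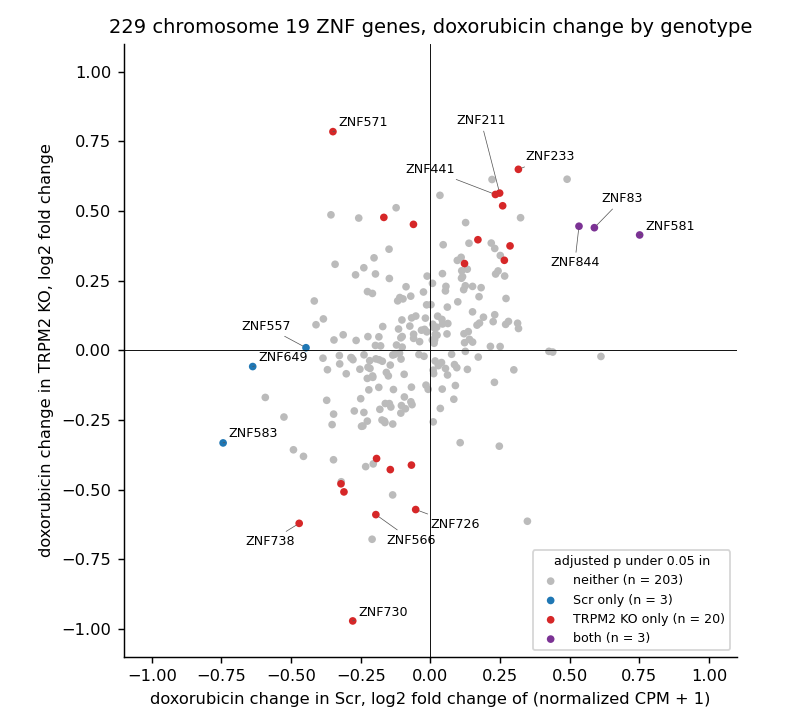
Log2 fold change after doxorubicin in Scr (horizontal axis) and in TRPM2 KO (vertical axis) of the 229 members. Colours mark members with an adjusted p under 0.05 in Scr, in TRPM2 KO, in both or in neither. Of the members 203 are called in neither genotype and 3 in both (ZNF581, ZNF83 and ZNF844), and all points lie within 1 on either side of 0.

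Whether doxorubicin acted differently in the genotypes was tested directly, as the interaction of genotype and treatment. No member passed (limma, 0 of 229, while 3 of all genes tested passed, 0.0196%), and edgeR's quasi-likelihood test and DESeq2 on the recovered reads also called 0. At an unadjusted p under 0.05 there were 15 members, 6.55%, against 7.49% of all genes. The smallest p-value was that of ZNF571, with a difference of 1.14 on the log2 scale (limma adjusted p = 0.240). The calls in a single genotype above are therefore not shown to be particular to it. Across the 229 members the changes in Scr and in TRPM2 KO had a Pearson's r of 0.42, against 0.62 across all genes tested, as a description across genes, which are not independent replicates.

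**Figure D4:**
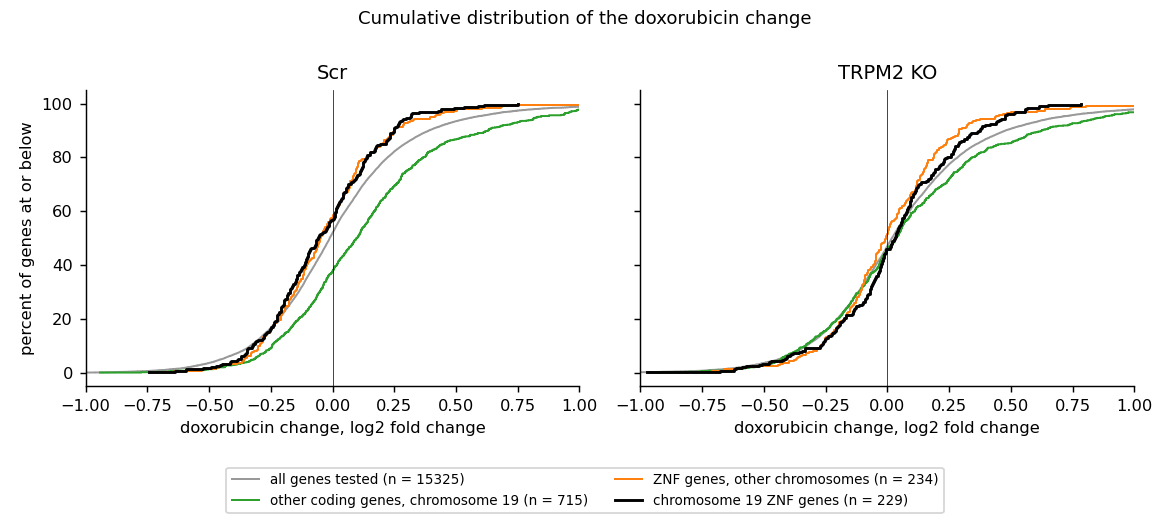
Percent of genes (vertical axis) whose log2 fold change after doxorubicin is at or below the value on the horizontal axis, in Scr (left) and TRPM2 KO (right), for the 229 members, 234 ZNF genes of other chromosomes, 715 other protein-coding genes of chromosome 19 and all 15325 genes tested. In Scr the members' median is -0.06 and that of the other genes of chromosome 19 is 0.10, and in TRPM2 KO both are 0.03.

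Between genotypes, 2 members were far lower in both clones labelled TRPM2 KO, with and without doxorubicin. ZNF229, a KRAB gene with 16 finger patterns at chr19:44417519-44448578, was at 16.8, 17.2, 17.2 and 16.4 normalized CPM in untreated Scr and at 2.70, 3.61, 1.01 and 3.28 in untreated TRPM2 KO. After doxorubicin it was at 22.6, 21.6, 25.5 and 12.7 in Scr and at 2.88, 2.71, 3.99 and 1.91 in TRPM2 KO. The groups were far apart in both treatments, with mean levels 6.37 and 7.17 times as high in Scr (log2 fold change -2.36 and -2.46, SE 0.24, limma adjusted p = 4.49e-08 and 1.88e-08). In RNA from whole cultures, fewer cells making a transcript and less of it in each cell cannot be told apart. ZNF229 overlaps an unnamed gene on the same strand.

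ZNF135, a KRAB gene also with 16 finger patterns, at chr19:58059239-58086310, was at 5.47, 2.30, 2.76 and 4.77 normalized CPM in untreated Scr and at 3.21, 2.90, 3.33 and 5.78 in treated Scr. In the libraries labelled TRPM2 KO it was at 0 in 5 of 8 and at most 0.365 normalized CPM, with 5 reads in all without treatment and 7 after it, against 308 and 224 reads in Scr. It had passed the level rule only through the Scr libraries and so had to differ, and its log2 fold changes of -2.10 and -2.09 are given as a description. ZNF135 overlaps ZSCAN18 on the opposite strand. The nearest members on either side of both genes, ZNF285 and ZNF180 beside ZNF229 and ZNF606 and ZNF329 beside ZNF135, did not pass in either treatment, with log2 fold changes between -0.19 and 0.24. Neither gene was called after doxorubicin in either genotype. With 5 and 7 reads in all, ZNF135 could hardly show a change in TRPM2 KO. For ZNF229 in Scr, most but not all treated libraries lay above every untreated one.

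The promoters of both genes are shown because these genes had the largest differences between genotypes among the members. The 250 bases before the start cover chr19:44448473-44448722 (minus strand) and chr19:58058989-58059238 (plus strand), from RefSeq, GRCh38.p14, with each CG in capitals.
ZNF229: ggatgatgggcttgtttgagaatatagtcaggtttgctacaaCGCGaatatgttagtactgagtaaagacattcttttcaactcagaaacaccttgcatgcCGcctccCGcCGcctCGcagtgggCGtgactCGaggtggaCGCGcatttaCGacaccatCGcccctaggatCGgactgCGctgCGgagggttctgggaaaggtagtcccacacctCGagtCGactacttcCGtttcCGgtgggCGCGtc
ZNF135: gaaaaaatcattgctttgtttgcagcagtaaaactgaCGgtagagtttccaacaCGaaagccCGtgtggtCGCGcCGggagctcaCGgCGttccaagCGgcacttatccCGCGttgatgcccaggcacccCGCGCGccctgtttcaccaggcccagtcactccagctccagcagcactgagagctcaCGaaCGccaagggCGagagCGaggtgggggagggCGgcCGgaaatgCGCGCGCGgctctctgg
ZNF229 has 21 CG and ZNF135 24, against a median of 16 in the members' promoters and 11 in all promoters, and neither holds CCAAT. DNA methylation was not measured in these libraries.

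Beyond these 2, no member passed the test between untreated TRPM2 KO and Scr, so that 0.873% were called against 4.83% of all genes tested, and 2.54% of all genes were lower in TRPM2 KO. After doxorubicin 6 members differed, 2.62% against 9.29%. Without ZNF135, which had to differ, the shares were 0.439% and 2.19% of 228 members. Of the 6, 3 were higher and 3 lower, against 4.85% and 4.44% of all genes. Besides ZNF229 and ZNF135 these were ZNF571 (0.75, limma adjusted p = 0.0299), ZNF583 (0.69, 0.0192) and ZNF667 (0.44, 0.0182), which were higher in TRPM2 KO, and ZNF536 (-0.25, 0.0424), which was lower. ZNF583 was at 8.00, 6.74, 7.59 and 9.15 normalized CPM in treated TRPM2 KO, above all 4 treated Scr libraries, and lies in part on an antisense gene of its neighbour ZNF582 on the same strand. ZNF667 was at 34.0, 32.4, 38.7 and 36.4 in treated TRPM2 KO and at 28.7, 26.5, 21.2 and 27.0 in treated Scr, without overlap. ZNF536 was at 101, 102, 107 and 98.2 in treated TRPM2 KO and at 127, 124, 124 and 113 in treated Scr, a small difference without overlap. The call of ZNF536 was lost in 16 of 35 alternative settings, 9 of them with 1 library left out, and with 1 library left out that of ZNF571 was lost in 5 cases and those of ZNF583 and ZNF667 in 3 each. Without the lowest-depth library 6 members were called between treated and 3 between untreated genotypes, and ZNF536 and ZNF667 no longer passed. With either TRPM2 KO clone left out, 2 members were called after doxorubicin, in fits with fewer libraries.

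Markers of another cell type moved with the genotype. COL3A1, a fibrillar collagen of fibroblasts, was at 139, 10.8, 41.1 and 30.3 normalized CPM in untreated Scr and at 194, 126, 215 and 165 in untreated TRPM2 KO. After doxorubicin it was at 29.6, 6.88, 83.9 and 19.8 in Scr and at 214, 154, 215 and 174 in TRPM2 KO (log2 fold change 2.17 untreated and 2.88 treated). COL1A1 was also higher in both (1.52 and 1.51), and EPCAM stayed near 0. Summed over these 3 genes, the only ones of the 7 listed markers in the tables, a Scr library held 8.83 to 150 and a TRPM2 KO library 137 to 238 normalized CPM. COL3A1 was the most abundant. The part of this difference in the members' values was not tested.

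**Figure D5:**
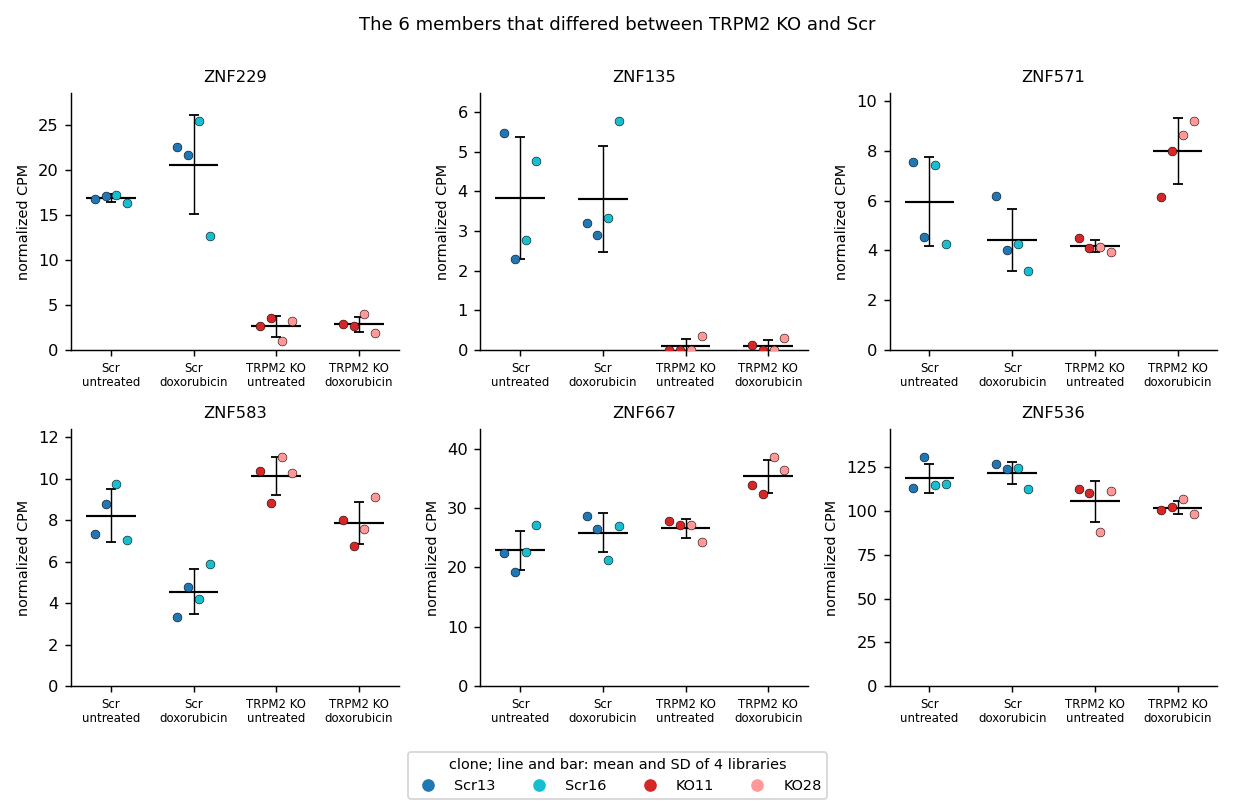
Normalized CPM (vertical axes, from 0) of the 6 members that differed between TRPM2 KO and Scr with or without doxorubicin, by group. Each point is a library coloured by clone, and lines and bars are the mean and SD of 4 libraries. ZNF229 lies at 1.01 to 3.99 in all TRPM2 KO libraries and at 12.7 to 25.5 in all Scr libraries, and ZNF135 at 0 to 0.365 against 2.30 to 5.78.

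Corepressor and related chromatin genes were examined next, in a list of 30 genes of which 28 were in the tables and 26 were tested. The list also holds genes that KRAB proteins may not recruit, among them UHRF1, MGA and L3MBTL2. In Scr 8 fell after doxorubicin and 0 rose, and in TRPM2 KO 9 fell and 0 rose, which is 30.8% and 34.6%, while 4.99% and 7.11% of all genes fell. The medians were -0.20 and -0.21. These genes had a smaller standard error than the ZNF members (median 0.0832 on the log2 scale), and its part in the shares was not tested. UHRF1, which guides DNA methylation to newly copied DNA, fell by 0.71 in Scr (limma adjusted p = 3.91e-05) and by 0.96 in TRPM2 KO (limma adjusted p = 1.73e-07) on the log2 scale. Its partner DNMT1 fell by 0.44 in TRPM2 KO and had -0.20 in Scr (limma adjusted p = 2.50e-05 and 0.0544). The H3K9 methyltransferase gene SUV39H2 fell by 0.45 in both. The HP1 genes CBX5, CBX3 and CBX1 fell by 0.29, 0.40 and 0.27 in Scr and by 0.40, 0.26 and 0.39 in TRPM2 KO. TRIM28 itself was at 588, 565, 530 and 617 normalized CPM in untreated Scr and 467, 533, 464 and 546 treated, with slight overlap, and at 537, 546, 549 and 641 untreated and 426, 431, 382 and 467 treated in TRPM2 KO, without overlap. Its fall of 0.41 in TRPM2 KO passed (limma adjusted p = 2.92e-04), and the change of -0.20 in Scr did not (limma adjusted p = 0.102). PPHLN1, a subunit of the HUSH silencing complex, fell by 0.32 in Scr and had -0.13 in TRPM2 KO, where it did not pass. SETDB1, the methyltransferase that TRIM28 recruits, had 0.10 and 0.09 and was not called. In no gene of the list was the interaction called. Between genotypes, DNMT1 and UHRF1 were lower in treated TRPM2 KO than in treated Scr (log2 fold change -0.25 and -0.46, limma adjusted p = 0.0190 and 0.00558), and 0 of the 26 differed without treatment. With treatment this is 7.69% of the list, against 9.29% of all genes tested that differed and 4.44% that were lower. Without treatment 4.83% of all genes tested differed.

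Of the 9 members with a described target or role, ZNF649 fell in Scr and ZNF382 rose in TRPM2 KO, as above, and the other 7 did not pass in either. This is 11.1% in each genotype, against 11.5% and 16.7% of all genes tested. ZNF91, which binds SVA retrotransposons and has 32 finger patterns, was at 49.9 ± 8.60 normalized CPM in untreated Scr, 54.1 ± 6.02 in treated Scr, 56.4 ± 9.60 in untreated TRPM2 KO and 57.3 ± 7.65 in treated TRPM2 KO (SD, n = 4 each). Its 4 groups overlapped. ZNF93, a repressor of LINE-1, had log2 fold changes of -0.24 in Scr and -0.27 in TRPM2 KO (limma adjusted p = 0.338 and 0.245). ZNF274, which binds the 3′ exons of zinc finger genes and recruits SETDB1, had 0.10 and 0.32 (limma adjusted p = 0.738 and 0.125). ZNF765, ZNF331, ZNF224 and ZNF43 lay between -0.25 and 0.31.

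Members with and without a KRAB pattern were set side by side. Of the 188 members with the pattern, 4 (2.13%) were called in Scr and 20 (10.6%) in TRPM2 KO. Of the 41 without it these were 2 (4.88%) and 3 (7.32%), and of all genes tested 11.5% and 16.7%. The members' medians were -0.06 and 0.04 with the pattern and -0.02 and -0.04 without it. Across the 229 members the change in Scr rose weakly with the GC content of the transcript (Spearman's rho 0.28) and that in TRPM2 KO less so (0.18), while the number of finger patterns had a rho of 0.02 in both. These are descriptions across genes that share libraries. The members' transcripts were poor in GC, with a median of 42.2% against 48.2% for all genes tested. Removing the trend with GC content from each library left 10 members called in Scr and 29 in TRPM2 KO. The shares of all genes called after that removal are not given here.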

How the data were processed

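Poly(A) RNA of 16 libraries was sequenced from a directional kit. The submitters' processing notes name bcl2fastq, HISAT2 2.1.0, HTSeq, edgeR and GRCh38, and the strand setting and the handling of reads with several matches are not given in the sources used here. The deposited library values are a signal, namely reads scaled by the authors to an effective library size (normalized CPM), with factors from 0.974 to 1.03. Whole reads were recovered from them for 100% of values (tolerance 0.001 reads). The deposited log2 fold changes, p-values and q-values and the ranking score of the authors' own comparisons of TRPM2 KO with Scr were not used. All columns per library were assigned, with 0 left over.

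Gene names and positions came from GENCODE 29 and promoters from RefSeq (GRCh38.p14). Clusters were split where neighbouring ZNF genes lay over 1 Mb apart. Values were analysed as log2(normalized CPM + 1), so that fold changes of low genes are understated, with limma 3.58.1 in R 4.3.3 (empirical Bayes with an abundance trend, 4 group means over the 16 libraries) and Benjamini-Hochberg adjustment over 15325 genes at 0.05. For single members an exact permutation test (two-sided, 4 against 4) was added. The scripts were tested on simulated data. A floor of 3 reads corresponds to 0.118 to 0.285 normalized CPM and covers counting error only. Replicates are cultures of a clone as labelled, so p-values measure the spread between these libraries.

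The members, gene lists and clusters were chosen with earlier results of these data known. Named were the 5 members with the most reads, among members past the threshold the 6 largest rises and falls with doxorubicin per genotype and the 5 largest differences between genotypes in each direction, the largest changes of a described cluster, the members at the edge of the level rule, 9 members with a described role and up to 8 changed corepressor genes. ZNF431, ZNF724, ZNF850 and SETDB1 were added after their values were seen. Alternatives were edgeR 4.0.16 and DESeq2 1.42.0 on the recovered reads, other scalings, pseudocounts and filters, a clone term, a replicate block, removal of a loess trend with GC content (span 0.3), and each library or clone left out.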

Additional observations from a re-analysis of the deposited data

Results flagged for a closer look

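Among the named members, 11 of 200 groups of 4 libraries held a library whose gap to the next exceeded Dixon's 95% critical value, which is about the share that chance gives (1 in 20 groups). In untreated Scr, ZNF146 was low in Scr13 replicate 2 (122 normalized CPM, the others 141 to 142) while ZNF536 was high in the same library (131, the others 113 to 115), and ZNF93 was high in Scr16 replicate 1 (19.8, the others 17.2 to 17.4). In untreated TRPM2 KO, ZNF536 was low in KO28 replicate 1 (88.1, the others 110 to 112), and ZNF135 was at 0.365 in KO28 replicate 2 and at 0 in the other 3. In treated TRPM2 KO, ZNF562 was low in KO28 replicate 2 (57.3, the others 73.1 to 76.1), ZNF83 was high in KO28 replicate 1 (47.2, the others 32.1 to 33.1) and ZNF491 was high in KO11 replicate 2 (5.29, the others 3.05 to 3.27). In treated Scr, ZNF135 was high in Scr16 replicate 2 (5.78, the others 2.90 to 3.33) and ZNF274 was low in Scr13 replicate 1 (20.0, the others 21.4 to 21.5). ZNF737, of the cluster nearest to the centromere, was low in Scr16 replicate 1 after doxorubicin (2.47, the others 5.91 to 6.36), the library with the fewest reads. The cause of these gaps was not tested.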

How the results depend on the processing

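Removing the trend with GC content raised the members called after doxorubicin in Scr from 6 to 10, and a minimum of 10 reads in every library left 1 between untreated genotypes in place of 2. Without clone KO11 and without clone KO28, 5 and 6 members were called after doxorubicin in TRPM2 KO in place of 23, and 2 and 2 between treated genotypes in place of 6. Without clone Scr13 and without clone Scr16, 2 and 1 were called after doxorubicin in Scr, and 11 and 3 between treated genotypes. At an adjusted p under 0.01, 2, 8 and 2 members were called after doxorubicin in Scr, in TRPM2 KO and between treated genotypes, and a minimum of 1.5-fold left 5 in TRPM2 KO. With each library left out in turn, 4 to 10 members were called in Scr, 14 to 29 in TRPM2 KO, 2 to 4 between untreated and 2 to 8 between treated genotypes. Without KO28 after doxorubicin replicate 2, 14 were called in TRPM2 KO and 2 between treated genotypes, without replicate 1 of the same clone 15, without untreated KO28 replicate 1, 4 between untreated genotypes, and without Scr16 after doxorubicin replicate 2, 10 in Scr. The interaction stayed at 0 in all settings. With the replicate number as a block 8, 23, 2 and 6 members were called in Scr, in TRPM2 KO and between untreated and treated genotypes. The numbers do not pair the libraries, since same-numbered libraries of a clone deviated together with correlations from -0.04 to 0.22. The shares of all genes called in these settings are not given here, and a fit without a library or clone holds fewer libraries. The cause of these changes was not tested. Of 29 calls of named members examined without ZNF135, 0 changed direction, 11 were kept with any single library left out and 18 were lost with at least 1. The fall of ZNF566, the rise of ZNF581 in Scr and the differences of ZNF229 passed in each setting. ZNF135 was left out by a minimum of 10 reads and, having had to differ, is not counted as stable. Named members that were not called, and ZNF431, ZNF724 and ZNF850, were not followed in this way. The level rule gave 236 members at 0.5 and 221 at 2 normalized CPM.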
